A study of Homo sapiens with 8 samples.

Results

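The genes described here are 8 genes of fatty acid and sterol synthesis: FASN, ACLY, SQLE, ELOVL6, ACSL1, ACSL3, ACSL4 and SCD. They were chosen by the presence or absence of their peaks in these lists, so the list in which a gene has a peak is given as a description, with no test. Of the 8 genes, 7 had a peak, and they held 15 of the 17481 peaks and 7 of the 9046 gene identifiers of the study. RNA enriched with an antibody to N4-acetylcytidine (ac4C), a modified cytidine, was sequenced beside input RNA from 2 populations of SiHa cells. SiHa is an established cervical carcinoma line. One population carried a knockout of NAT10, and the other is titled SiHa, with no modification named in its titles. Each population had 2 immunoprecipitated and 2 input libraries, 8 libraries in all. The values used here are 1 peak list per population, the knockout list with 4557 peaks in 3726 genes and the SiHa list with 12924 peaks in 7291 genes. The sources used here do not state how the knockout was made or whether it was 1 clone.

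The enzyme NAT10 adds the acetyl group of ac4C to RNA. Cells make palmitate from citrate: ACLY splits citrate into acetyl-CoA, and FASN, a large enzyme with several active sites, builds the fatty acid. Elongases such as ELOVL6 lengthen it, SCD puts in a double bond, and the ACSL enzymes join long-chain fatty acids to coenzyme A so that they can enter lipids or be broken down. Sterols come from the same acetyl-CoA through mevalonate and squalene, which SQLE oxidises at a control point of cholesterol synthesis. Tumour cells often run these pathways at a high rate.

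A peak here is a stretch of a transcript in which the authors' caller found antibody-enriched reads, written as 1 or more blocks, so that a peak can span a splice junction. Both lists give a p-value per peak, and the knockout list also gives a fold enrichment and a false discovery rate. All 3 are the authors' values. They served to describe or rank peaks within a list and, in alternative settings, to leave peaks out. Strengths of peaks were not compared between the lists, although the setting of −log10 p above 8 was applied to both. Read counts and replicate values are not part of either list, so the depth is unknown and no difference between the lists could be set against the spread between replicates. A peak list does not measure expression, and a gene without a peak may be unexpressed, unmodified or too thinly read. Whether the RNA under a peak carries ac4C was not tested in either list, the knockout list included. NAT10 itself had no knockout peak and 1 SiHa peak (deposited p of 5e-37). Of 10 epithelial and squamous marker genes, 3 had a knockout peak and 5 a SiHa peak, KRT8 and KRT19 in both lists. None of 5 adipocyte markers had a peak in either list. The globin genes HBA1, HBA2 and HBB, which a pure epithelial culture should lack, held 5 knockout peaks and 7 SiHa peaks. Over all 15 markers of cell types that a pure culture should lack, 6 had a knockout peak and 5 a SiHa peak. Their part in the results below was not tested.

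FASN had 4 knockout peaks and no SiHa peak, ACLY had no knockout peak and 3 SiHa peaks, and SQLE had 1 knockout peak and 3 SiHa peaks. ELOVL6, ACSL1, ACSL3 and ACSL4 had no knockout peak and 1 SiHa peak each. SCD had no peak in either list. By gene, 1 of the 8 had peaks in the knockout list alone, 1 in both and 5 in the SiHa list alone. Over all genes, 47.1% of the 3726 with a knockout peak had no SiHa peak, and of the 7291 with a SiHa peak 73.0% had no knockout peak and 27.0% had one. The members' counts were fixed by the way they were chosen, so nothing is read from their difference from these shares. Beside SCD, which had none, a peak could be placed in 36.5% of 20050 RefSeq coding genes.

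**Figure D1:**
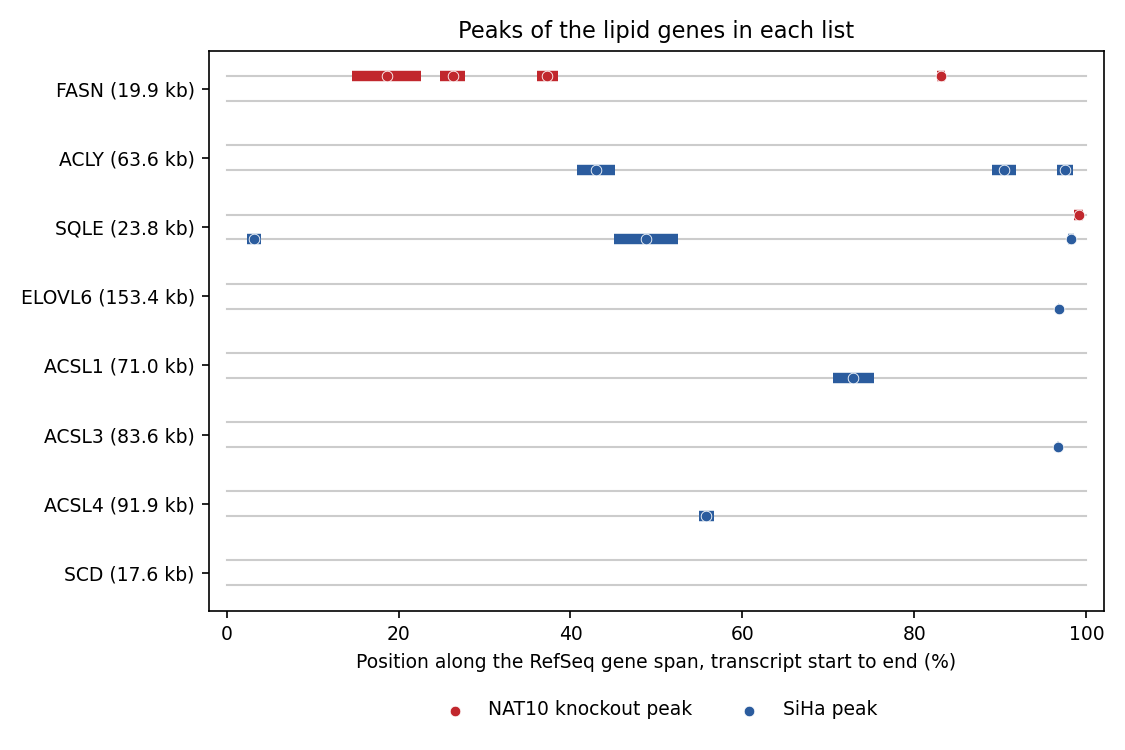
Each gene has 2 grey lines for its RefSeq span, drawn to the same width from the transcript start (0%) to its end (100%), with knockout peaks (red) on the upper line and SiHa peaks (blue) on the lower. Dots mark the middle of a peak and bars its whole extent, gaps included. FASN has 4 peaks on the knockout line alone, SQLE has peaks on both lines that meet near 98 to 99% of the span, and SCD has none.

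ACLY, which supplies the acetyl-CoA for both pathways, lies on chromosome 17 (GRCh38 41866917 to 41930545, minus strand). Its 3 SiHa peaks (ENSG00000131473) all had more than 1 block. The strongest, between 41872141 and 41873918, covered 150 bases in 2 blocks with a deposited p of 1.3e-16. It ranked 3597th of 12924 SiHa peaks. Its middle lay at 90.4% of the gene span, counted from the transcript start. A peak of 211 bases between 41901783 and 41904619 had a deposited p of 2.3e-06 and lay at 43% of the span. The weakest covered 121 bases in 3 blocks between 41867897 and 41869078, had a deposited p of 0.0027 and ended 980 bases before the end of the span. The ACLY peaks thus differed widely in strength, at 27.8%, 51.6% and 79% of the SiHa list counted from its strongest peak. Among genes with exactly 3 SiHa peaks, 63.3% of 727 had no knockout peak.

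FASN, the fatty acid synthase, lies on the same chromosome (82078338 to 82098236). Its 4 knockout peaks (ENSG00000169710) were on the minus strand and covered 783 bases in all. The strongest covered 300 bases in 3 blocks between 82092711 and 82093293, with a deposited p of 1.6e-100, a fold of 20.9 and a false discovery rate of 7.9e-98. It ranked 80th of 4557 knockout peaks by p and 64th by width. The next, between 82090557 and 82091054, covered 181 bases in blocks of 8 and 173, with a deposited p of 1e-46 and a fold of 66.7. These 2 peaks lay at 26.3% and 37.3% of the span and were among the strongest 6% of the knockout list. The other 2 were much weaker. A peak of 181 bases at 82081613 to 82081793, at 83.1% of the span, had a deposited p of 4.7e-05 and a fold of 20.5. A peak of 121 bases in 3 blocks, between 82093740 and 82095324, had a deposited p of 0.011, a fold of 3.85 and a false discovery rate of 0.23. No base of a SiHa peak was shared by any of them.

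The 2 weaker FASN peaks also carried values that recur across the knockout list. The fold of 20.5 and its p were deposited for 136 peaks, and the fold of 3.85 and its p for 17. In the whole list, 59.3% of peaks shared their fold and p with at least 9 others. The 2 stronger FASN peaks each had a fold and p that no other peak had. With recurring values left out, FASN still had 2 knockout peaks and no SiHa peak, and the same 2 remained at −log10 p above 8. The presence of FASN in the knockout list therefore did not rest on its weak peaks. Its absence from the SiHa list could not change here, since these settings only remove peaks.

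**Figure D2:**
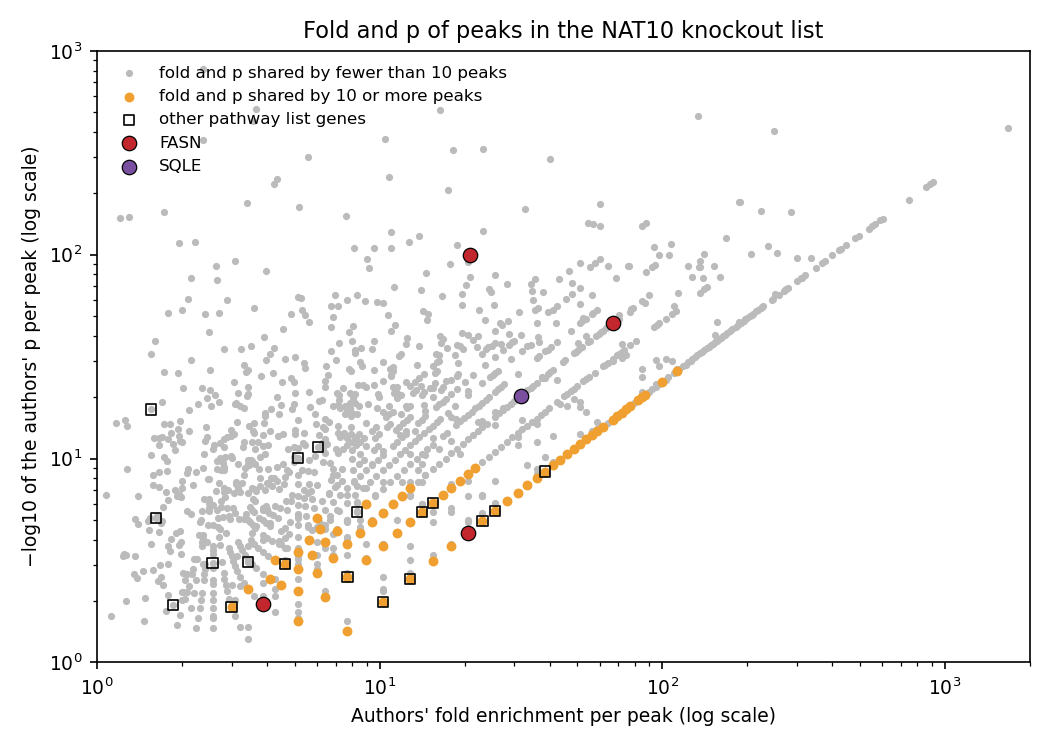
Each point is a pair of fold (x, log scale) and −log10 p (y, log scale) deposited in the knockout list, orange where 10 or more peaks share it. Red points are the 4 FASN peaks, the purple point is SQLE and open squares are the other genes of the wider lipid list. The FASN peaks with folds of 20.9 and 66.7 lie above the orange points, and the other 2 carry shared values. The 12 knockout peaks with −log10 p above 1000 are not drawn.

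Having 4 knockout peaks was rare. Of 3726 genes in the knockout list, 82.4% had 1 peak, and 28 (0.751%) had at least 4. FASN had 3 knockout peaks at a false discovery rate of at most 0.05 and 2 without recurring values. The share of genes with as many was not counted at those settings. By covered bases FASN ranked 21st of all 3726. Of the 28 genes with at least 4 knockout peaks, 8 (28.6%) had no SiHa peak, FASN among them. By number of knockout peaks, the named genes most like it were IGFN1 and SYNE2 with 5, and CSF3R, CYBB and TLE3 with 4, each with none in SiHa. SYNE2 encodes a nesprin of the nuclear envelope, CSF3R the receptor of granulocyte colony-stimulating factor, CYBB a subunit of the phagocyte oxidase and TLE3 a transcriptional corepressor. The likeness is a count in 2 lists and carries no further measure. The highest −log10 p was 99.8 in FASN, 113 in IGFN1, 59.3 in TLE3, 52.1 in CSF3R, 11.8 in CYBB and 5.5 in SYNE2. Peaks with recurring values numbered 2 in FASN, 3 each in CSF3R and CYBB, and 1 each in IGFN1, SYNE2 and TLE3.

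SQLE (ENSG00000104549, chromosome 8, 124998505 to 125022283, plus strand) was the only one of the 8 genes in both lists. Its knockout peak covered 240 bases at 125021954 to 125022193, with a deposited p of 5e-21, a fold of 31.6 and a false discovery rate of 3.2e-19. It ranked 651st of 4557 by p and ended 90 bases before the end of the gene span. The strongest SiHa peak lay at the other end of the gene, at 124999065 to 124999453, 560 bases after the start of the span. It covered 389 bases with a deposited p of 1e-272 and ranked 365th of 12924 SiHa peaks, the strongest of the 8 genes. A SiHa peak of 181 bases in 2 blocks, between 125009217 and 125010998, had a deposited p of 3.2e-15. The last SiHa peak, at 125021775 to 125021954, covered 180 bases with a deposited p of 6.3e-28.

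The knockout peak of SQLE and the last SiHa peak met at a single base, position 125021954. The shared base was 0.42% of the knockout peak and 0.56% of the SiHa peak. By the rule that 1 shared base on the same strand counts as overlap, 1 of the 10 SiHa peaks of the lipid genes was overlapped, and 1 of their 5 knockout peaks. When both peaks had to overlap over at least 50% of their length, none was. That rule was met by only 407 peaks (3.15%) of the whole SiHa list. Over the whole lists, 19.2% of knockout peaks and 6.76% of SiHa peaks shared at least 1 base with a peak of the other list. The other 2 SiHa peaks of SQLE lay 22500 and 10955 bases from the knockout peak, introns included.

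ELOVL6, the elongase of long saturated fatty acids, had 1 SiHa peak (ENSG00000170522) on chromosome 4. The peak covered 150 bases at 110050750 to 110050899, 4904 bases before the end of the span, with a deposited p of 0.0066. SCD, the desaturase that acts on the products of FASN and ELOVL6, spans 100347233 to 100364826 on chromosome 10 and had no peak in either list.

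The 3 acyl-CoA synthetases each had 1 weak SiHa peak and no knockout peak. ACSL4, which favours polyunsaturated fatty acids such as arachidonate and is known for its part in ferroptosis, had a peak of 151 bases in 3 blocks on chromosome X, between 109681128 and 109682750, with a deposited p of 0.00058. ACSL3, a synthetase of the endoplasmic reticulum and of lipid droplets, had a peak of 181 bases at 222941767 to 222941947 on chromosome 2, with a deposited p of 0.0012. ACSL1, a major synthetase in fat and liver, had a peak of 151 bases in 4 blocks of 29 to 52 bases, between 184773118 and 184776512 on chromosome 4, with a deposited p of 0.01. By p these peaks ranked 9065th for ACSL4, 9242nd for ACSL3 and 11541st for ACSL1 of 12924. The ELOVL6 peak ranked 10520th. All 4 therefore lay at 70.1% or further down the SiHa list, counted from its strongest peak, where the highest deposited p was 0.05. Among all genes with exactly 1 SiHa peak, 78.5% of 4312 had no knockout peak. With both lists limited to peaks of −log10 p above 8, ELOVL6 and the ACSL genes had no peak left, ACLY alone remained in the SiHa list alone, and FASN and SQLE kept their places.

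**Figure D3:**
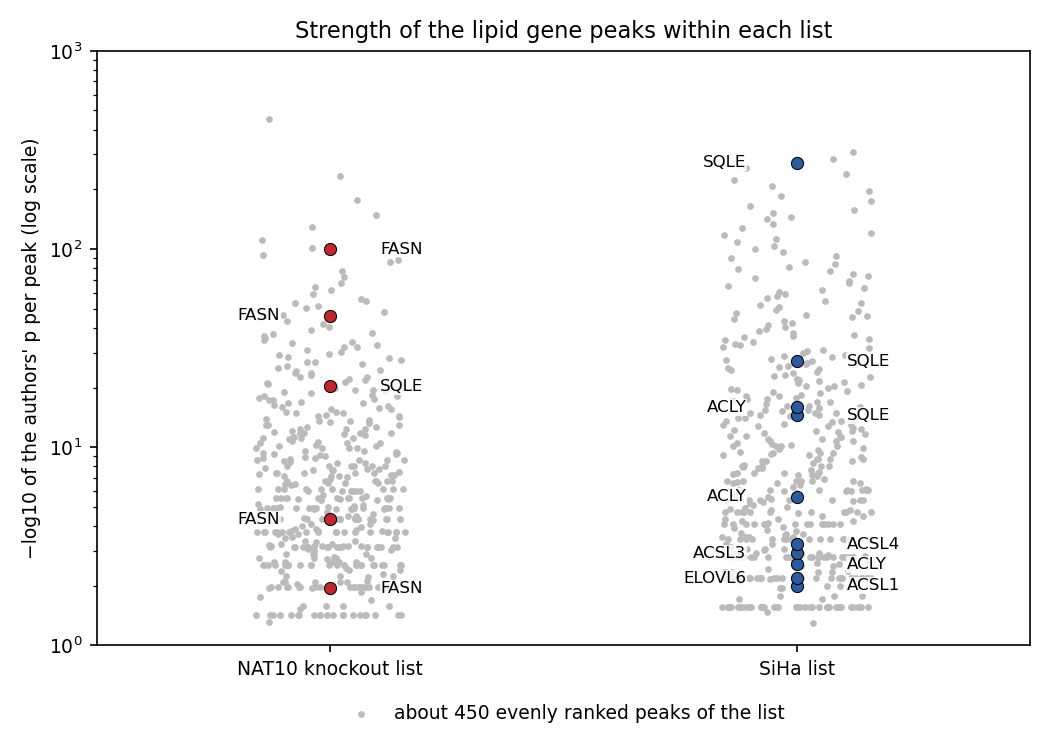
Coloured points are the lipid gene peaks by −log10 p (log scale), 5 in the knockout list (left) and 10 in the SiHa list (right), over grey points drawn from the ranked peaks of each list. FASN has 2 strong and 2 weak knockout peaks, SQLE has the strongest SiHa peak, and ELOVL6 and the ACSL genes lie at the lower end. Heights are not comparable between the lists, and SiHa peaks with p listed at 0 are not drawn.

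The lipid gene peaks were of ordinary width and were often split into blocks. The median width was 181 bases in the 5 knockout peaks, against 180 in the whole knockout list, and 165.5 bases in the 10 SiHa peaks, against 181 in the whole SiHa list. More than 1 block was found in 3 of the 5 knockout peaks (31.3% of all knockout peaks) and in 6 of the 10 SiHa peaks (25.2% of all SiHa peaks). The middle of the peak lay in the last 10% of the gene span in 1 of the 5 knockout peaks, that of SQLE, and in 5 of the 10 SiHa peaks, in ACLY, SQLE, ELOVL6 and ACSL3. Over all named genes these shares were 32.8% in the knockout list and 40.7% in the SiHa list. The peaks share genes, so these counts are not independent. Exons, introns and untranslated regions were not analysed here.

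A wider list of 94 genes of lipid synthesis and its control, which includes the 8, was read in the same way. Of these, 13 had peaks in the knockout list alone, 5 in both, 30 in the SiHa list alone, and no peak was named in 46. Of the 18 genes with a knockout peak, 72.2% had no SiHa peak (95% exact binomial interval 46.5 to 90.3%, all genes 47.1%). Of the 35 with a SiHa peak, 85.7% had no knockout peak (69.7 to 95.2%, all genes 73.0%). Without the 8 genes, which were chosen by their peaks, 12 of 16 genes with a knockout peak had no SiHa peak (75%, interval 47.6 to 92.7%), and 25 of 29 with a SiHa peak had no knockout peak (86.2%, 68.3 to 96.1%). On the knockout side the interval contains the share over all genes with the 8 included and starts just above it without them. On the SiHa side both intervals contain that share. The wider list was drawn up with earlier results of these data known, so nothing is read from either side. The intervals cover counting of genes only and are no test of the list. Of the list's 23 knockout peaks, 12 carried recurring values and 6 had a false discovery rate above 0.05, against 25.0% of all knockout peaks. Those above 0.05 were 1 peak each of FASN, SLC25A1, ELOVL2, DHCR7, NPC2 and AGPAT1. The recurring values were those of the 2 weaker FASN peaks, 1 of the 2 peaks each of SLC25A1 and HACD3, and the peaks of ACSS1, ELOVL2, MVD, SREBF2, ABCG1, NPC2, AGPAT1 and LPIN3. With recurring values left out, 6 genes had a knockout peak alone, FASN among them.

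The counts by role that follow are small and include the 8 genes, which were chosen by their peaks. Over all genes, 47.1% of those with a knockout peak had no SiHa peak, and 73.0% of those with a SiHa peak had no knockout peak. Nothing is read from differences between roles. In precursor supply, ACLY alone had a SiHa peak, and 3 genes had knockout peaks alone. The acetyl-CoA synthetases ACSS2 and ACSS1, which use acetate in place of citrate, had folds of 8.33 and 25.6. The fold and p of the ACSS1 peak were shared by 101 peaks. The mitochondrial citrate carrier SLC25A1, which exports the substrate of ACLY, had 2 knockout peaks with folds of 3.42 and 10.3, the second at a false discovery rate of 0.53. In fatty acid synthesis ACACA, the acetyl-CoA carboxylase that makes malonyl-CoA for FASN, had a peak in each list at different places. Its knockout peak lay at 77.8% of the span with a deposited p of 7.8e-06 and a fold of 1.61, and its SiHa peak at 0.108% of the span with a deposited p of 0.0069. ACACB (deposited p of 0.0066) and MCAT (deposited p of 8.3e-05) had a SiHa peak alone.

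Among the 17 desaturation and elongation genes, 3 had knockout peaks alone, 1 both and 5 SiHa peaks alone. The desaturase FADS1 had a knockout peak with a deposited p of 7.9e-11 and 5.13-fold enrichment. The dehydratase HACD2 had a deposited p of 4e-12 (fold 6.04), and the elongase ELOVL2 a deposited p of 0.0023 (fold 7.69, false discovery rate 0.47). HACD3 had knockout peaks at 55.1% and 99.4% of its span and a SiHa peak at 88.7%. The strongest genes with a SiHa peak alone were ELOVL7 (deposited p of 3.2e-23), ELOVL1 (deposited p of 0.00011), ELOVL5 (deposited p of 0.001) and ELOVL6. In fatty acid activation, none of 9 genes had a knockout peak and 4 had a SiHa peak. The fourth, beside the ACSL genes, was the transporter and synthetase SLC27A4, with a deposited p of 3.2e-11.

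Of 21 genes of mevalonate and sterol synthesis, 2 had knockout peaks alone, 2 had peaks in both lists and 6 had SiHa peaks alone. The decarboxylase MVD had a knockout fold of 14.1 and the isomerase IDI1 one of 2.56. The fold and p of the MVD peak were shared by 27 peaks. DHCR7, the last reductase of cholesterol synthesis in one of its branches, had peaks at the same place in both lists. Its knockout peak of 151 bases, at 71435190 to 71435340 on chromosome 11, lay wholly inside a SiHa peak of 241 bases. The knockout peak was weak, with a deposited p of 0.012, a fold of 1.85 and a false discovery rate of 0.14, and the SiHa peak had a deposited p of 8.9e-07. The squalene synthase FDFT1, which makes the substrate of SQLE, had a SiHa peak with a deposited p of 1.3e-12. LBR (deposited p of 7.8e-08) and MSMO1 (deposited p of 1.2e-06) followed. HMGCS1, an early enzyme of the pathway, had no named peak.

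Among 15 regulators, SREBF2, the transcription factor that drives sterol synthesis genes, had a peak in the knockout list alone. Its fold of 23.1 and its p were shared by 122 peaks. MBTPS1, the protease that cuts SREBF proteins, had a SiHa peak alone with a deposited p of 1e-199. The other regulators with a SiHa peak alone included PRKAB2 (deposited p of 1.4e-10), a subunit of AMP-activated kinase, NR1H2 (deposited p of 0.00036), a liver X receptor, and SCAP (deposited p of 0.019), the escort of SREBF proteins. SREBF1 and INSIG1 had no named peak. Among 8 genes of sterol uptake, export and esterification, the exporter ABCG1 (fold 38.5) and the lysosomal carrier NPC2 (fold 2.99) had knockout peaks alone. The fold and p of ABCG1 were shared by 43 peaks, and those of NPC2, at a false discovery rate of 0.16, by 10. The exporter ABCA1 had 3 SiHa peaks alone, the strongest with a deposited p of 4.1e-10, and NPC1 (deposited p of 2.3e-08) and SOAT1 (deposited p of 1.3e-05) also had SiHa peaks alone. In glycerolipid synthesis LPIN3 had a peak in the knockout list alone (fold 15.4), and AGPAT1 had peaks in both lists at different places. The fold and p of the LPIN3 peak were shared by 22 peaks, and those of the AGPAT1 knockout peak by 205. AGPAT3, AGPAT2, LPIN1 and PLIN3 had SiHa peaks alone, with a p listed at 0 in AGPAT3 and a deposited p of 6.3e-19 in AGPAT2.

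**Figure D4:**
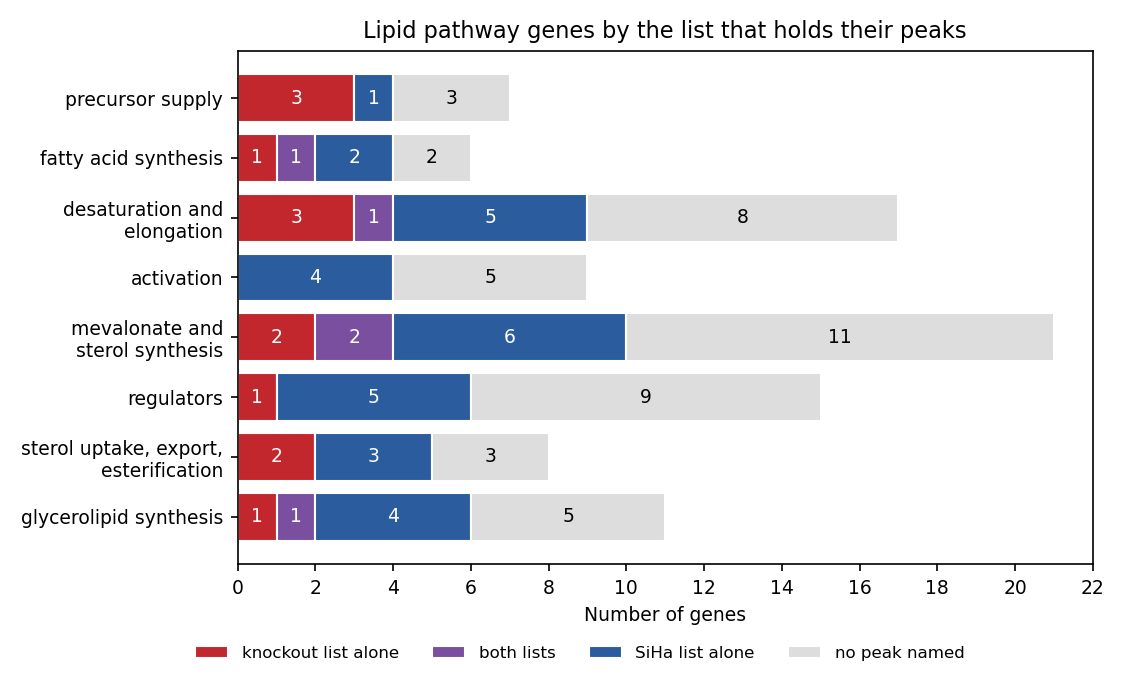
Bars count the 94 genes of the wider lipid list by role (rows) and by the list that holds their peaks: the knockout list alone (red), both (purple), the SiHa list alone (blue) or neither (grey). Activation has 4 genes in the SiHa list alone and none with a knockout peak, and precursor supply has 3 in the knockout list alone. The activation genes include ACSL1, ACSL3 and ACSL4, which were chosen by their peaks. Over all genes, 73.0% of those with a SiHa peak had no knockout peak, and 47.1% of those with a knockout peak had no SiHa peak.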

How the data were processed

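Per the labels' protocols, libraries of ac4C-antibody-enriched and input mRNA were made with a stranded kit. FastQC 0.11.7 and the GRCh38 (hg38) build are named in the submitters' processing notes. For the aligner, peak caller, annotation and treatment of replicates, a name is not given in the sources used here. As deposited, the authors' data are 1 peak list per population. Per the file headers, the score column was read as a p-value per peak, and the knockout list adds log10 p and log10 of the false discovery rate (held here as a score) and a ratio, the fold enrichment, with no stated denominator. The list named SiHaK was read as that of the knockout cells, which no label states in words.

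The analysis dropped 2 knockout peaks and 3 SiHa peaks off the chromosomes and 1 repeated SiHa line. An identifier was named after the RefSeq coding gene (GRCh38.p14) whose span alone held at least 90% of its block bases, on the same strand where the strand was known, and whose name no other identifier claimed. Of 9046 identifiers, 7076 (78.2%) were named. The naming and overlap steps were tested on simulated peaks with Python 3.11.15 and pandas 2.3.3. Intervals are 95% exact binomial (Clopper-Pearson) intervals from scipy 1.17.1. The members, gene lists and alternatives were chosen with earlier results of these data known. Genes were named in the text by rule: the 8 members, list genes with a knockout peak, up to 4 of the strongest genes with a SiHa peak alone per role, and up to 5 genes like FASN. Genes mentioned for having no peak were chosen after the lists were read. No test was made, since neither peaks nor genes are replicates. Some genes of the wider list are counted but not reported here by name. Sequences were not analysed here.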

Additional observations from a re-analysis of the deposited data

How the results depend on the processing

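FASN stayed in the knockout list alone and SQLE in both under each of the following settings. The first were gene naming without strand, a knockout false discovery rate of at most 0.05, and −log10 p above 8 in both lists. The others were a SiHa list reduced to its 4557 strongest peaks, and knockout peaks without recurring fold and p. All but the naming setting only remove peaks, so they could not give FASN a SiHa peak. Lipid genes with a SiHa peak alone numbered 5, and 1 (ACLY) with −log10 p above 8 and in the reduced SiHa list, because those settings remove weak peaks. Lipid gene peaks at the same place in both lists numbered 1, and 0 with reciprocal overlap over 50%. Of all SiHa peaks, 6.76% met the first rule and 3.15% the second. In the wider list, genes with a knockout peak alone numbered 13, with 5 at −log10 p above 8 and 6 without recurring values. They numbered 11 at a false discovery rate of at most 0.05 and 17 with the reduced SiHa list. Genes in both lists numbered 5, with 3 at a false discovery rate of at most 0.05, 1 at −log10 p above 8 and 1 in the reduced SiHa list. Genes with a SiHa peak alone numbered 30, with 10 at −log10 p above 8 and 7 in the reduced SiHa list. Over all genes, the share of knockout genes without a SiHa peak (47.1%) was 59.0% at −log10 p above 8, 69.1% in the reduced list and 38.9% without recurring values. The share of SiHa genes without a knockout peak (73.0%) was 84.8%, 65.5% and 86.4% in the same order of settings. At a knockout false discovery rate of at most 0.05 the shares were 44.0% of knockout genes and 77.9% of SiHa genes. Leaving out a replicate was not run, since the lists hold no value for a single library. No paired analysis was possible because the lists carry no replicate values. Depth limits the absence of a peak, and it is unknown here.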

Other observations

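In the wider lipid list, 1 gene had peaks that could not be assigned. HSD17B12, the reductase partner of the fatty acid elongases, was claimed by 2 identifiers, 1 with a knockout peak and 1 with a SiHa peak, and was counted among genes with no named peak. FDPS, which makes farnesyl diphosphate, lies on the plus strand and counted as having no peak. A SiHa peak was given to it only when strand was ignored, since a minus-strand peak lies in its span. That peak is on the strand opposite to the gene.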
